A study of Homo sapiens with 35 samples.

Results

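Expression of 37 listed genes of the NF-kB system was followed across 14 groups of cells of HCT116, an established line from a human colorectal carcinoma. The list was made of the NF-kB subunits, their inhibitors, and target genes that encode chemokines, cytokines, adhesion molecules and survival factors. Of the 37 genes, 35 had a row of their own on the array, out of 18404 genes tested, and BIRC3 and CSF2 were not analysed here. The cells carried a non-target hairpin (shControl), a hairpin against the Mediator kinase CDK8 (shCDK8) or a hairpin against its paralog CDK19 (shCDK19), with 1 line for each. Total RNA was hybridised to 35 Affymetrix gene arrays, with 2 or 3 arrays in a group. In normal growth each of the 3 lines had 3 arrays. In the drug experiment, shControl cells in DMSO, the solvent, and all 3 lines in 5-fluorouracil (5FU), an inhibitor of thymidylate synthesis, had 2 arrays each after 12 h. In the glucose experiment, shControl cells in high glucose DMEM and all 3 lines in low glucose DMEM had 3 arrays each after 24 h. For hypoxia, cells spent 24 h at 1% oxygen, with 2 arrays for every line. Before treatment all cells were plated in McCoy's 5A with fetal calf serum. No knockdown line in DMSO or high glucose, and no normoxic array of the hypoxia experiment, was analysed here, so hypoxia and its experiment cannot be told apart, and neither can a hairpin and the 1 line that carries it. The labels do not say whether replicate arrays came from separate cultures, so the p-values measure only the spread between arrays, which could be technical.

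NF-kB factors are dimers of REL, RELA, RELB and the products of NFKB1 and NFKB2. In resting cells inhibitors such as the IkB proteins hold them in the cytoplasm, and signals from cytokine and innate immune receptors lead to phosphorylation and breakdown of the inhibitor. The freed dimers bind kappaB sites at their targets, which include the genes of the inhibitors NFKBIA and TNFAIP3, so that the pathway feeds back on itself. In colon epithelium and its tumours the pathway is known for chemokine production and for cell survival. CDK8 and CDK19 are alternative kinases of the Mediator module that links transcription factors to RNA polymerase.

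Promoter sequences are shown first for the members that passed the test in the largest number of comparisons and had an entry in the RefSeq promoter table (GRCh38.p14). CSF1, called as often as CXCL8, had no entry. Each sequence is the 250 bases before the table's transcription start, read 5′ to 3′ on the gene's own strand. Capitals mark matches to the 10-base kappaB consensus (GGG, a purine, any 2 bases, 2 pyrimidines, CC), searched on both strands. NFKBIA is on the minus strand at chr14:35404750-35404999, TNFAIP3 on the plus strand at chr6:137867009-137867258, and CXCL8 on the plus strand at chr4:73740319-73740568. The TNFAIP3 window lies within the annotated span of the gene, which begins upstream at base 137866349, and the other windows end next to their annotated gene.
NFKBIA: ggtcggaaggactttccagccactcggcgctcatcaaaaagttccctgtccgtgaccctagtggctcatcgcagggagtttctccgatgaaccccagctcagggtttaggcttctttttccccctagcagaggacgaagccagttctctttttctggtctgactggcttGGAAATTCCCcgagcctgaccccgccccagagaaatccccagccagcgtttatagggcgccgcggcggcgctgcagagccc
TNFAIP3: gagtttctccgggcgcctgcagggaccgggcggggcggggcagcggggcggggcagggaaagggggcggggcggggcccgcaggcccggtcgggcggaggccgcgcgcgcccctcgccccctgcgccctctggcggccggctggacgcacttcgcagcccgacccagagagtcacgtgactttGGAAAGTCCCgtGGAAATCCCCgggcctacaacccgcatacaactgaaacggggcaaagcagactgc
CXCL8: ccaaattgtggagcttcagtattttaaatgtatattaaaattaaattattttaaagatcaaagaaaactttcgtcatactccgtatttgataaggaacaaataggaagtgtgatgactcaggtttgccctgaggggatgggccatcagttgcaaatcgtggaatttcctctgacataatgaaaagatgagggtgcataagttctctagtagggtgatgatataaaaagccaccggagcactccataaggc
The NFKBIA match lies 81 to 72 bases before the start, and TNFAIP3 has matches at 67 to 58 and 55 to 46 bases, all 3 read as the consensus on the opposite strand. The CXCL8 window holds no match to these letters, which says nothing about binding of the factor there. A match was present in 14 of the 30 measured members with an entry and in 9.6% of 27305 promoters of the same length. A match is a description of letters and was not tested as a site.

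A second set of windows shows the bases around the matches in 3 chemokine members. These 40-base windows were chosen after the sequences had been seen, and capitals mark the 11 bases covered by overlapping matches on the 2 strands, 79 to 69 bases before the start in CXCL1 and CXCL3 and 78 to 68 bases in CXCL2. CXCL1 lies on the plus strand at chr4:73869299-73869338, CXCL2 on the minus strand at chr4:74099249-74099288 and CXCL3 on the minus strand at chr4:74038744-74038783.
CXCL1: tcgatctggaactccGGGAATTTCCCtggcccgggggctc
CXCL2: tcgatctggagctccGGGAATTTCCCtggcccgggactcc
CXCL3: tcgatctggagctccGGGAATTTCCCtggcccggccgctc
CXCL1 and CXCL3 were identical at 37 of 40 bases, and CXCL2 was identical to each of them at 35. These counts include the 11 shared bases on which the windows were placed. They do not describe the whole promoters, which were not compared. The CXCL genes are close paralogs, and cross-hybridisation between their probes was not tested.

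Values are deposited log2 signals, so a difference of 1 is a doubling. All arrays shared a lowest value of 4.32, the log2 of 20, and 34 of the 35 members were above it on every array. CXCL10, an interferon-induced chemokine, was at this floor on 27 of 35 arrays and in 9 whole groups, where only a bound is known and no change is given. The arrays of a group correlated at 0.976 to 0.998 over all rows, with the lowest value in the shControl hypoxia pair, and shCDK8 normal growth replicate 1 and the DMSO pair also stood apart from their mates. In such bulk RNA, fewer cells with a transcript and less of it per cell cannot be told apart. The CDK8 row, shared with ADRA1B, was at 7.58 to 8.53 on the shCDK8 arrays and at 9.79 to 10.96 on the shControl and shCDK19 arrays. CDK19 was at 7.32 to 7.78 in the shCDK19 line in normal growth against 9.09 to 9.11 in shControl, and was lower in the shCDK19 line than in shControl in the other conditions too, with no overlap. In shControl cells CDK19 itself was at 8.47 to 8.60 in DMSO and at 7.63 to 7.80 in 5FU. Epithelial markers averaged 10.4 to 11.2 on every array, against 5.98 to 6.75 for leukocyte and 6.04 to 6.75 for fibroblast markers. Of the 11 measured leukocyte markers, PTPRC, the pan-leukocyte phosphatase, was at the floor on 13 of 35 arrays and never above 4.62, while CD68, a lysosomal protein, was at 9.07 to 11.13 and LYZ, which encodes lysozyme, at 4.72 to 10.74.

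**Figure D1:**
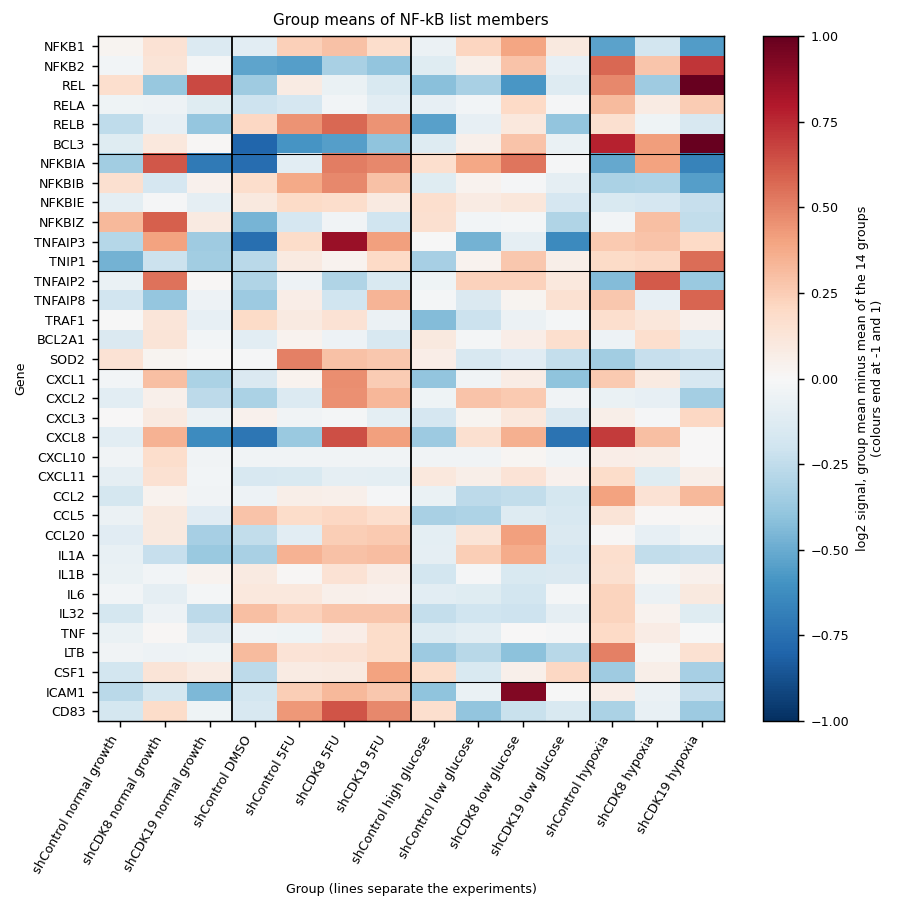
Group means of the 35 members in the 14 groups, each as log2 signal minus the gene's mean over the groups, with colours ending at -1 and 1. The inhibitors NFKBIA and TNFAIP3, the chemokine CXCL8 and the subunit REL are among the rows with wide colour ranges, while IL6 and CXCL3 vary little.

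NFKBIA encodes IkB-alpha, the inhibitor that holds NF-kB dimers in the cytoplasm. In normal growth its log2 signal was 10.62, 10.58 and 10.65 in shControl cells, 11.54, 11.61 and 11.62 in shCDK8 cells, and 10.30, 10.33 and 10.14 in shCDK19 cells. The 3 lines did not overlap, with shCDK8 cells above and shCDK19 cells below the control. The difference from shControl, as a log2 change with its standard error (SE), was 0.97 ± 0.057 in shCDK8 cells, a 1.96-fold rise (adjusted p = 2.28e-05), and -0.36 ± 0.057 in shCDK19 cells (adjusted p = 0.00909). Here and below, p-values come from limma fits across all genes and are adjusted by the Benjamini-Hochberg method, and a gene is called when the adjusted p is under 0.05. In hypoxia the signal was 10.38 and 10.53 in shControl, 11.43 and 11.30 in shCDK8 and 10.31 and 10.29 in shCDK19 cells, so that shCDK8 cells again stood above the others (0.91 ± 0.093 against shControl, adjusted p = 0.0145). That call was lost without either shCDK8 hypoxia array, with an adjusted p of up to 0.18. Here and below such a maximum is taken over all alternatives tried, which besides single arrays left out include other fits.

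Glucose and 5FU gave NFKBIA other patterns. In low glucose the shControl arrays were at 11.35, 11.35 and 11.37, shCDK8 arrays at 11.46, 11.52 and 11.53, and shCDK19 arrays at 11.04, 11.00 and 10.83, against 11.16, 11.13 and 11.12 in high glucose shControl cells. Low glucose raised NFKBIA by 0.22 ± 0.052 (adjusted p = 0.00897), the shCDK19 line was lower by -0.40 ± 0.052 (adjusted p = 0.000564), and the shCDK8 difference of 0.15 ± 0.052 was not called (adjusted p = 0.0716). With 5FU the values were 11.01 and 10.71 in shControl, 11.24 and 11.71 in shCDK8 and 11.45 and 11.44 in shCDK19 cells, against 10.15 and 10.26 in DMSO. Both shControl 5FU arrays were above the shControl DMSO pair, and 48.4% of all genes did not overlap between these groups. The drug difference did not pass the test (0.65 ± 0.17, adjusted p = 0.0677). Nor did the knockdowns against shControl in 5FU (0.62 in shCDK8, adjusted p = 0.141, and 0.58 in shCDK19, adjusted p = 0.222).

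TNFAIP3 encodes A20, a ubiquitin-editing enzyme that ends NF-kB signalling. In normal growth its signal was 7.32, 7.42 and 7.50 in shControl, 7.95, 8.20 and 8.14 in shCDK8 and 7.46, 7.38 and 7.17 in shCDK19 cells. The shCDK8 arrays lay apart from both other lines (0.69 ± 0.096 against shControl, adjusted p = 0.0016), and the shCDK19 difference was -0.07 (adjusted p = 0.871). In shControl cells the gene rose from 6.93 and 6.96 in DMSO to 7.92 and 7.84 with 5FU (0.94 ± 0.116, 1.91-fold, adjusted p = 0.0102), and fell from 7.62, 7.76 and 7.70 in high glucose to 7.37, 7.10 and 7.20 in low glucose (-0.47 ± 0.064, adjusted p = 0.000294). The shCDK8 line was also higher in 5FU, at 8.39 and 8.74 (0.68 ± 0.116, adjusted p = 0.0414), and in low glucose, at 7.60, 7.58 and 7.63 (0.38 ± 0.064, adjusted p = 0.00165). The 5FU knockdown call was lost without either shControl 5FU array or without shCDK8 5FU replicate 2, with an adjusted p of up to 0.219, and the rise with 5FU was lost without either shControl 5FU array (up to 0.076). In hypoxia the lines overlapped, at 7.77 and 8.15 in shControl and 8.08 and 7.89 in shCDK8 cells (0.02 ± 0.156, adjusted p = 0.931).

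In the knockdown lines TNIP1, BCL3, NFKBIZ, NFKBIB and NFKBIE had smaller called changes from shControl than NFKBIA and TNFAIP3. TNIP1, a partner of A20, rose by 0.26 in shCDK8 cells in normal growth and by 0.24 in low glucose, and in shControl cells by 0.37 with low glucose and by 0.67 ± 0.075 between normal growth and hypoxia (adjusted p = 1.89e-07). BCL3, a nuclear IkB protein that binds the NFKB1 and NFKB2 products, was at 10.32, 10.39 and 10.39 in shControl cells in normal growth and at 11.31 and 11.21 in hypoxia, the largest of the called rises in that comparison (0.89 ± 0.084, 1.86-fold, adjusted p = 1.09e-08). NFKBIZ, another nuclear IkB protein, was higher in shCDK8 cells in normal growth (0.28 ± 0.074, adjusted p = 0.0304) and lower in shCDK19 cells in low glucose (-0.27 ± 0.061, adjusted p = 0.0108). Its largest called change was between the knockdown lines in normal growth, higher in shCDK8 cells by 0.51, and that call held in every alternative tried. NFKBIB, which encodes IkB-beta, fell by 0.32 ± 0.086 in shCDK8 cells in normal growth (adjusted p = 0.029), opposite to NFKBIA. NFKBIE, which encodes IkB-epsilon, was called against shControl once, at -0.26 ± 0.064 in shCDK19 cells in low glucose (adjusted p = 0.0191).

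**Figure D2:**
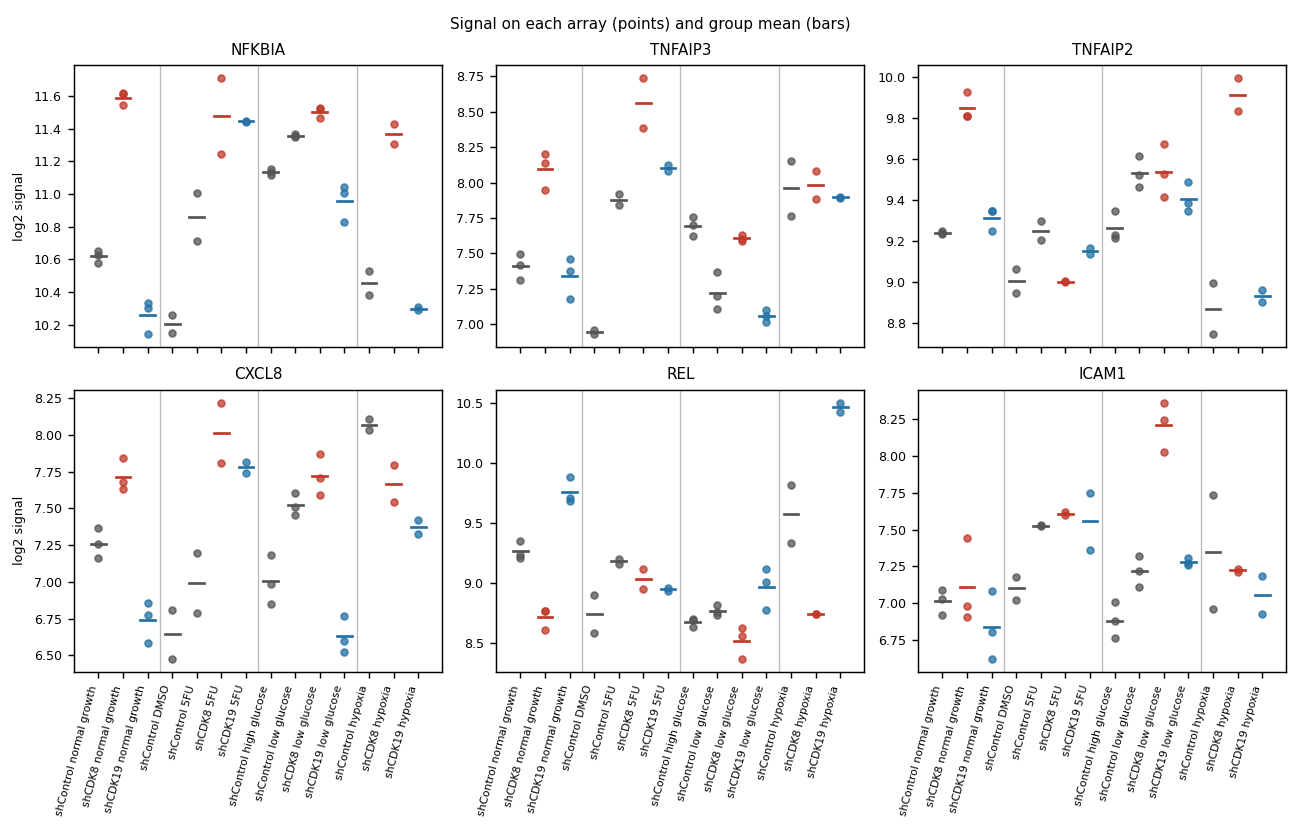
Log2 signal of 6 members on each of the 35 arrays (points) with the group mean (bar), shControl in grey, shCDK8 in red and shCDK19 in blue, and grey lines between the 4 experiments; each panel has its own scale. NFKBIA and TNFAIP2 are high in shCDK8 cells in normal growth and hypoxia, REL is low in shCDK8 and high in shCDK19 cells in those conditions, and ICAM1 is high in shCDK8 cells in low glucose.

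Among the 5 subunit genes, REL, the c-Rel subunit, separated the knockdown lines in opposite directions. In normal growth REL was at 9.23, 9.21 and 9.35 in shControl, 8.60, 8.77 and 8.77 in shCDK8 and 9.88, 9.71 and 9.68 in shCDK19 cells. It fell by 0.55 ± 0.074 in the shCDK8 line (adjusted p = 0.00136) and rose by 0.49 ± 0.074 in the shCDK19 line (adjusted p = 0.00763). In hypoxia the order was the same, at 9.33 and 9.81 in shControl, 8.73 and 8.74 in shCDK8 and 10.42 and 10.50 in shCDK19 cells. Neither hypoxic line passed the test against shControl (-0.83 ± 0.172, adjusted p = 0.0598, and 0.89 ± 0.172, adjusted p = 0.16), whose pair was spread more widely than either knockdown pair. The shCDK8 line was 3.30-fold lower than the shCDK19 line there (-1.72 ± 0.172, adjusted p = 0.0106), a call lost without any 1 of those 4 arrays (adjusted p up to 0.129). In low glucose REL was at 8.55, 8.62 and 8.37 in shCDK8 and 9.11, 9.01 and 8.77 in shCDK19 cells, which did not overlap (-0.45 ± 0.088 between them, adjusted p = 0.00367). With 5FU the lines lay between 8.93 and 9.20 and none of the differences was called.

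The other subunit genes were called mostly in low glucose and hypoxia. RELB, a partner of the NFKB2 product in the noncanonical pathway, rose in shControl cells from 7.57, 7.72 and 7.73 in high glucose to 8.15, 8.19 and 8.06 in low glucose (0.46 ± 0.064, adjusted p = 0.000338), and was lower in shCDK19 cells in low glucose, at 7.90, 7.80 and 7.75 (-0.32 ± 0.064, adjusted p = 0.00623). NFKB2 was at 10.38, 10.34 and 10.32 in normal growth and 10.97 and 10.92 in hypoxia in shControl cells (0.60 ± 0.077, adjusted p = 1.18e-06). NFKB1 moved the other way between those groups, from 9.65, 9.59 and 9.64 to 8.94 and 9.19 (-0.56 ± 0.092, adjusted p = 3.13e-05). RELA, the main transactivating subunit, was higher by 0.23 ± 0.051 in shCDK8 cells in low glucose (adjusted p = 0.00936) and by 0.36 ± 0.063 in hypoxic shControl cells (adjusted p = 6.05e-05). Within normal growth, NFKB2 differed by 0.16 in shCDK8 cells (adjusted p = 0.0503), and neither RELA, RELB nor NFKB1 was called against shControl.

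CXCL8, the neutrophil-attracting chemokine, was the chemokine called most often. In normal growth its signal was 7.16, 7.37 and 7.26 in shControl, 7.84, 7.63 and 7.68 in shCDK8 and 6.59, 6.78 and 6.86 in shCDK19 cells, again with 3 separate lines. The changes were 0.46 ± 0.091 in shCDK8 (adjusted p = 0.00871) and -0.52 ± 0.091 in shCDK19 cells (adjusted p = 0.0138), and the shCDK19 call was lost without shControl replicate 2 or 3 (adjusted p up to 0.0589). In low glucose the shCDK19 arrays, at 6.52, 6.60 and 6.76, were below the shControl arrays at 7.51, 7.61 and 7.46, a 1.86-fold difference (-0.90 ± 0.099, adjusted p = 0.000182), while the shCDK8 arrays, at 7.71, 7.87 and 7.59, overlapped the control (0.20 ± 0.099, adjusted p = 0.203). Low glucose itself raised CXCL8 in shControl cells, from 6.98, 6.85 and 7.18 (0.52 ± 0.099, adjusted p = 0.00257). With 5FU both knockdown lines were above the control, at 7.81 and 8.22 in shCDK8 and 7.82 and 7.74 in shCDK19 against 7.20 and 6.79 in shControl cells, and neither difference was called (1.02 ± 0.203, adjusted p = 0.0636, and 0.79 ± 0.203, adjusted p = 0.174). In hypoxia both were below it, at 7.79 and 7.54 and at 7.32 and 7.42 against 8.03 and 8.11, and again neither was called (-0.40 ± 0.114, adjusted p = 0.112, and -0.70 ± 0.114, adjusted p = 0.13). With 2 arrays in a group, lack of overlap with shControl was common. In 5FU it held for 45.6% of all genes in shCDK8 and 48.1% in shCDK19 cells. In hypoxia the shares were 54.5% and 39.1%.

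CXCL1, a related neutrophil attractant, had the same order of the lines in normal growth, with smaller differences. It was at 7.55, 7.53 and 7.48 in shControl, 8.00, 7.76 and 7.77 in shCDK8 and 7.03, 7.39 and 7.26 in shCDK19 cells. The shCDK8 rise of 0.33 ± 0.1 was just past the threshold (adjusted p = 0.0493) and was lost when any single array of the 2 groups was left out (adjusted p up to 0.141), and the shCDK19 difference of -0.29 was not called (adjusted p = 0.154). Between the knockdown lines CXCL1 was higher in shCDK8 cells by 0.62 in normal growth and by 0.47 in low glucose. Both of these calls held in every alternative tried. In low glucose CXCL1 was lower in shCDK19 than in shControl cells (-0.36, kept in 7 of 11 alternatives). Against high glucose it rose by 0.36 in shControl cells with low glucose (kept in 9 of 11). CXCL2 was called between the knockdown lines in normal growth (0.32 ± 0.067, adjusted p = 0.011) and in no comparison with shControl, and CXCL3, whose arrays all lay between 6.50 and 7.10, in none of the 15 comparisons. CCL20, which attracts dendritic cells and lymphocytes through CCR6, was higher in shCDK8 than in shCDK19 cells in low glucose, at 5.61, 5.79 and 5.47 against 4.95, 5.18 and 5.10 (0.55 ± 0.126, adjusted p = 0.00925). Over all arrays CCL20 was at 4.65 to 5.79, close to the floor. CCL2, a monocyte attractant, rose between normal growth and hypoxia in shControl cells (0.57 ± 0.132, adjusted p = 0.00114), a call lost without shControl hypoxia replicate 1 (adjusted p = 0.0668). CCL5 was just past the threshold between the knockdown lines in normal growth (0.21 ± 0.065, adjusted p = 0.0497), a call kept in 2 of 11 alternatives and lost, among others, without shCDK8 replicate 3 or any 1 of the 3 shCDK19 arrays (adjusted p up to 0.184). CXCL11, a relative of CXCL10, lay between 4.34 and 4.97 on all arrays and was called in none of the 15. CXCL10 was above the floor on all 3 shCDK8 arrays in normal growth, at 4.58, 4.54 and 4.48, and at the floor on all 3 arrays of each other line.

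Of the cytokine genes, IL1A and CSF1 were called most often. IL1A, which encodes the alarmin interleukin-1-alpha, was at 4.92 and 5.00 in DMSO and 5.66 and 5.60 in 5FU in shControl cells (0.67 ± 0.067, adjusted p = 0.00625), a call lost without shControl 5FU replicate 1 (adjusted p = 0.0607). In low glucose it was at 5.55, 5.69 and 5.35 in shControl and 5.11, 5.18 and 5.05 in shCDK19 cells (-0.42 ± 0.088, adjusted p = 0.00805). Over all arrays IL1A was at 4.851 to 5.765, close to the floor. CSF1, the macrophage growth factor, was at 8.16, 8.18 and 8.15 in shControl, 8.51, 8.48 and 8.44 in shCDK8 and 8.39, 8.51 and 8.40 in shCDK19 cells in normal growth. Both lines were called higher than the control (0.31 ± 0.043, adjusted p = 0.00145, and 0.27 ± 0.043, adjusted p = 0.00958), as no other member was in that condition, and the shCDK19 call was lost without shControl replicate 3 (adjusted p = 0.0503). TNF, the prototype inducer of the pathway, was called once, in hypoxic against normally grown shControl cells (0.27 ± 0.102, adjusted p = 0.0342), and LTB, which encodes lymphotoxin-beta, also only there (0.53 ± 0.183, adjusted p = 0.0215). The LTB difference rested on shControl hypoxia replicate 1, at 9.48 against 8.60 in replicate 2 and 8.47 to 8.57 in normal growth, and its call was lost without that array or without shControl normal growth replicate 1 (adjusted p up to 0.81). A dimmer LTB row, not used in the fit, had group means of 6.86 in normal growth and 7.16 in hypoxia. The TNF call was lost without the same array or without shControl normal growth replicate 3 (up to 0.684). IL6, IL1B and IL32, further inflammatory cytokines, were called in none of the 15 comparisons, and IL6 was at 4.67 to 5.43 over all arrays, close to the floor.

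ICAM1, the adhesion molecule that binds leukocyte integrins, changed in shCDK8 cells in low glucose. Its signal was 8.36, 8.03 and 8.25 in shCDK8, 7.32, 7.22 and 7.11 in shControl and 7.31, 7.28 and 7.26 in shCDK19 cells, so that the shCDK8 arrays lay above all others (1.00 ± 0.091, 1.99-fold, adjusted p = 3.22e-05). In normal growth the shCDK8 arrays, at 7.44, 6.98 and 6.91, overlapped the shControl arrays at 6.92, 7.03 and 7.09 (0.10 ± 0.162, adjusted p = 0.78), and the 5FU and hypoxia differences were 0.08 and -0.12, neither called.

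TNFAIP2, a TNF-induced gene, had another pattern. It was at 9.25, 9.24 and 9.24 in shControl and 9.81, 9.93 and 9.81 in shCDK8 cells in normal growth (0.61 ± 0.046, adjusted p = 8.43e-05), and at 8.74 and 9.00 against 10.00 and 9.84 in hypoxia (1.05 ± 0.121, 2.07-fold, adjusted p = 0.0181). In low glucose the lines overlapped (0.01 ± 0.072, adjusted p = 0.982), and with 5FU shCDK8 cells were at 9.00 on each array against 9.29 and 9.21 (-0.25 ± 0.061, adjusted p = 0.107). The shCDK19 line was within 0.13 of shControl in all 4 conditions and was not called. The hypoxia call was lost without either shCDK8 array (adjusted p up to 0.19).

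CD83, a surface protein of activated dendritic and lymphoid cells, rose by 0.36 ± 0.056 in shCDK8 cells in normal growth (adjusted p = 0.00274), rose by 0.59 ± 0.103 with 5FU in shControl cells (adjusted p = 0.0233) and fell by 0.56 ± 0.046 in low glucose (adjusted p = 1.13e-05). TNFAIP8, a regulator of apoptosis, rose by 0.43 ± 0.066 with 5FU in shControl cells (adjusted p = 0.0172). It was lower in shCDK8 than in shCDK19 cells in 5FU, at 7.01 and 7.09 against 7.59 on each array (-0.54 ± 0.066, adjusted p = 0.0161). The rises of CD83 and TNFAIP8 with 5FU were lost without either shControl 5FU array (adjusted p up to 0.122 and 0.107). The TNFAIP8 call between the lines was lost without any 1 of those 4 arrays (up to 0.142). SOD2, mitochondrial superoxide dismutase, was called once, lower in hypoxic than in normally grown shControl cells (-0.49 ± 0.106, adjusted p = 0.000643). TRAF1, a signalling adaptor, and BCL2A1, a survival factor of the BCL2 family, were called in none of the 15 comparisons.

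**Figure D3:**
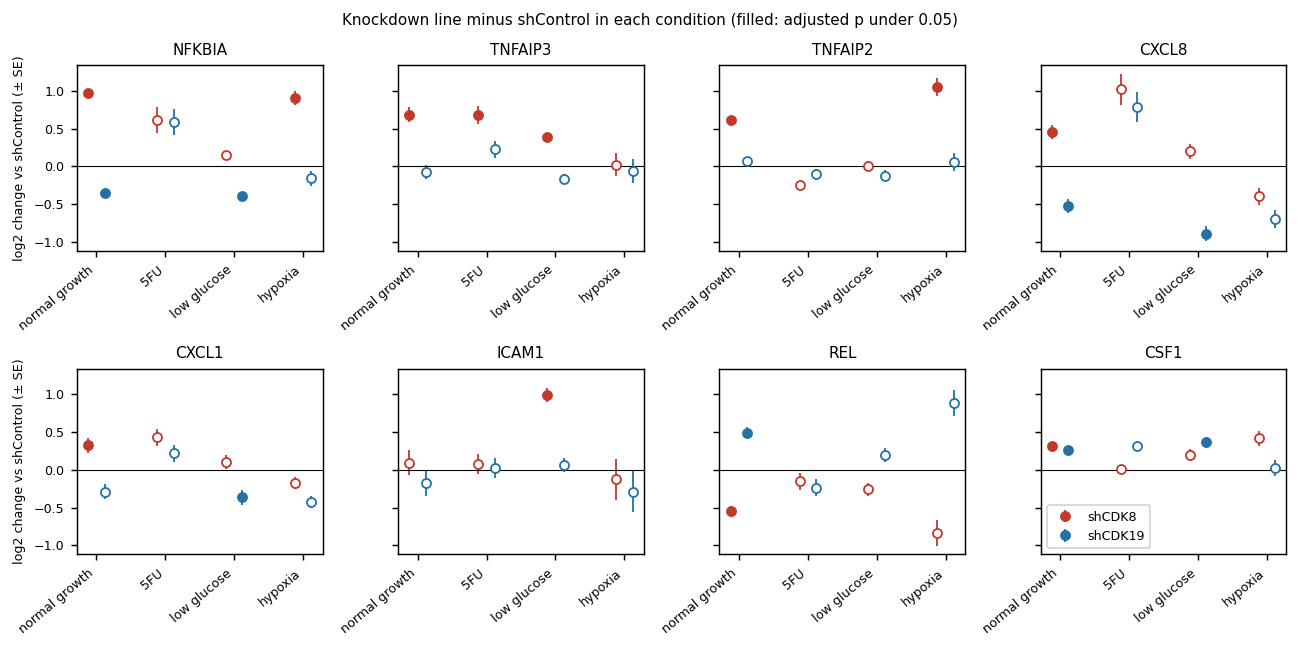
Log2 change of shCDK8 (red) and shCDK19 (blue) cells against shControl for 8 members in the 4 conditions; points are fitted changes, bars are ± SE, and filled points have an adjusted p under 0.05. The NFKBIA, CXCL8 and REL points of the lines lie on opposite sides of 0 in normal growth, and both CXCL8 points lie above 0 in 5FU and below it in hypoxia.

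In normal growth the members called in shCDK8 cells were mostly higher, and those called in shCDK19 cells went both ways. Of the 35 members, 10 were higher in shCDK8 than in shControl cells, where 11.4% of all genes were, and 2 were lower, where 13.5% were. The 10 were NFKBIA, TNFAIP3, TNFAIP2, CXCL8, CD83, CXCL1, CSF1, NFKBIZ, TNIP1 and BCL3, and the 2 were REL and NFKBIB. The median change of the members was 0.16, against -0.02 over all genes. Of the 12 calls, NFKBIA, REL, TNFAIP2, TNFAIP3, CXCL8, CD83 and CSF1 held in every alternative tried, and the other 5 were each lost when at least 1 single array was left out. The count was 14 without shCDK8 replicate 1, in a fit that called 36.5% of all genes against 24.9% with every array. It was 8 without shControl replicate 1, shControl replicate 2 or shCDK8 replicate 3, where 17.3%, 17.7% and 19.9% of all genes were called. Some cell type markers were called in the same comparison. The mean over the leukocyte markers was 6.03 to 6.09 on shControl arrays and 6.46 to 6.75 on shCDK8 arrays. Of these 11 markers LYZ (5.44) and CD68 (0.63) were higher and 0 lower, with PTPRC at -0.05. Their median change was -0.04. Epithelial markers averaged 10.71 to 10.74 and 10.43 to 10.50. Of these 7 markers 2 were higher (KRT18 at 0.84 and KRT8 at 0.53) and 3 lower (CDH1 at -1.70, EPCAM at -1.31 and KRT19 at -0.21). The part of these markers in the members' changes was not tested. In shCDK19 cells 2 members were higher (REL and CSF1, background 3.67%) and 3 lower (CXCL8, NFKBIA and IL1A, background 3.4%), with a median of -0.07 against -0.0032 over all genes. The IL1A call was lost without any 1 of the 6 arrays. Without shControl replicate 2 the count was 3, and without shControl replicate 3 it was 2. Directly compared, shCDK8 exceeded shCDK19 cells in 10 members (background 12.9%) and was lower in 1, REL (background 13.2%). NFKBIA differed by 1.33 ± 0.057 and CXCL8 by 0.98 ± 0.091 between these lines, and NFKB1 and CXCL2 were among the 10. The knockdown comparisons share the shControl arrays, so the directions in the lines are not independent of each other.

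Other genes of the pathway, from lists of receptors and adaptors (22 measured), kinases and ubiquitin enzymes (20), further targets (29) and receptors of the member ligands (10), were counted against the same shares of all genes, 11.4% higher and 13.5% lower in shCDK8 cells and 3.67% and 3.4% in shCDK19 cells. In shCDK8 cells 5 receptors or adaptors were higher and 0 lower, among them LTBR, the lymphotoxin receptor (0.45), TNFRSF1A, the main TNF receptor (0.43), and IRAK2, a kinase below the interleukin-1 receptor (0.42). Of the regulators 5 were higher and 1 lower, with IKBKB, the kinase that phosphorylates IkB proteins, at 0.42 and TANK, a TRAF-binding adaptor, at -1.09. Of the further targets 6 were higher and 5 lower, with LIF, an interleukin-6 family cytokine, at 0.87, and PTGS2, the inducible cyclooxygenase, and IL18, a cytokine processed by inflammasomes, at -1.27 and -1.19. Of the receptors of the member ligands 0 were higher and 1 lower, the interleukin-6 receptor gene IL6R (-0.32). In shCDK19 cells 2 receptors or adaptors were higher and 1 lower, 2 further targets were higher and 3 lower, and the regulators and the receptors of the member ligands had 0 calls in either direction. PTGS2 was lower in that line as well (-1.07), and IL18 was higher (0.88). The further targets thus moved both ways in each line.

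With 5FU the called members of shControl cells were all higher. They were TNFAIP3, IL1A, CD83, TNFAIP8 and CSF1, 5 of 35 with a background of 7.17%, and 0 members were lower, where the background was 4.29%. The median was 0.19 over the members and -0.02 over all genes. The count was 0 without shControl 5FU replicate 1, 1 without replicate 2, and 12 when each array was centred on its median. In 5FU, shCDK8 cells had 1 higher member, TNFAIP3 (background 1.59%), and 0 lower (1.91%), and shCDK19 cells had 0 higher (0.576%) and 0 lower (0.261%) by limma, with 7 members at an unadjusted p under 0.05. The shCDK8 count was 0 without either shControl 5FU array or without shCDK8 replicate 2, and 2 without shCDK8 replicate 1. Between the knockdown lines 0 members were higher in shCDK8 cells (2.22%) and 2 were lower, TNFAIP8 and CSF1 (2.92%). That count of 2 became 1 higher and 1 lower with median centring. Neither call held without any 1 of the 4 arrays, and without shCDK8 5FU replicate 1 another member was called, in the opposite direction. Elsewhere in the pathway TLR3, the receptor for double-stranded RNA, was raised by 5FU in shControl cells (1.69), was lower in shCDK8 cells (-0.93) and higher in shCDK19 cells (1.05), and the deubiquitinase CYLD was raised by the drug (0.92).

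In low glucose the members of shControl cells moved both ways, and more members were called between the knockdown lines than between either line and the control. Against high glucose 9 members were higher (background 13.9%) and 4 lower (17.3%). The higher ones were CXCL8, RELB, TNIP1, CXCL1, IL1A, ICAM1, NFKB1, TNFAIP2 and NFKBIA, and the lower ones CD83, TNFAIP3, CSF1 and NFKBIZ. With each array centred on its median the split was 14 higher and 3 lower. RELB, TNFAIP3, TNIP1, CXCL8, CD83 and CSF1 held in every alternative. In shCDK8 cells 6 members were higher than in shControl (ICAM1, TNFAIP3, TNIP1, BCL3, RELA and CD83, background 12.1%) and 0 lower (10.2%), and ICAM1, TNFAIP3 and RELA held in every alternative. The shCDK8 count was 4 without any 1 of the 3 shControl arrays or without shCDK8 replicate 1, 9 without shCDK8 replicate 2, and with median centring 4 higher and 1 lower. In shCDK19 cells 3 were higher (CSF1, TNFAIP8 and CD83, 9.11%) and 7 lower (CXCL8, IL1A, NFKBIA, CXCL1, RELB, NFKBIZ and NFKBIE, 10.8%). Between the lines 15 members were higher in shCDK8 cells, where 14.7% of all genes were, and 1 was lower, REL, where 11.2% were. In this comparison 13 of the 16 calls held in every alternative, led by CXCL8 (1.09 ± 0.099) and ICAM1 (0.93 ± 0.091). Among other pathway genes RBCK1, part of the linear ubiquitin ligase, rose by 1.42 in low glucose in shControl cells, TANK fell in both knockdown lines (-0.73 in shCDK8 and -0.55 in shCDK19) and IL18 fell in shCDK8 cells (-1.13).

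Hypoxic shControl cells differed from normally grown ones in 20 members. Of these 14 were higher (BCL3, CXCL8, TNIP1, NFKB2, CCL2, TNFAIP3, LTB, TNFAIP8, RELB, RELA, REL, CXCL1, TNF and IL1A), with a background of 21.1%, and 6 lower (NFKB1, SOD2, NFKBIB, TNFAIP2, NFKBIZ and CSF1), with a background of 26.7%. The median was 0.24 over the members and 0.06 over all genes. Between the same groups the mean over markers went from 6.06 to 6.43 for leukocytes, from 6.26 to 6.55 for fibroblasts, from 5.57 to 5.82 for endothelium and from 10.73 to 10.94 for epithelium. Of these markers 3 of 11, 3 of 8, 1 of 6 and 4 of 7 were called higher and 0 lower, and their part in the members' changes was not tested. The 2 hypoxia arrays were apart, at 6.26 and 6.60 for leukocytes, 6.36 and 6.75 for fibroblasts and 5.68 and 5.96 for endothelium. The standard deviation over genes was 1.89 on replicate 1 of that pair and 2.02 on replicate 2. CXCL8 rose by 0.81 ± 0.134 (adjusted p = 3.64e-05), and NFKBIA did not pass the test (-0.16, adjusted p = 0.157). The count was 13 without shControl hypoxia replicate 1 and 10 when only these groups entered the fit, and BCL3, CXCL8, TNIP1, NFKB2, RELA, NFKB1, NFKBIB and SOD2 held in every alternative. Other pathway genes in this comparison included GADD45B, a stress-induced target (1.40), TLR3 (-1.75), IL1RAP, the interleukin-1 receptor partner (1.09), and CHUK, the IkB kinase alpha subunit (-1.01).

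Under hypoxia few knockdown differences were called. In shCDK8 cells 2 members were higher than in shControl, TNFAIP2 and NFKBIA (background 4.81%), and 0 lower (2.49%). This count depended on single arrays, since it was 4 without shControl hypoxia replicate 1, 14 without shControl replicate 2 (46.4% of all genes called, against 7.3% with every array) and 0 without either shCDK8 array, and median centring gave 2 higher and 1 lower. The leukocyte markers averaged 6.43 in shControl and 6.65 in shCDK8 cells, but their median change was -0.26. LYZ was higher (4.89) and the other 10 were not called. Of the 7 epithelial markers 2 were higher (KRT18 at 0.73 and KRT8 at 0.45). Another 3 were lower (CDH1 at -1.36, EPCAM at -1.13 and KRT19 at -0.53). Of the 8 fibroblast markers 1 was lower, COL1A1 (-0.98), and 0 were higher. The part of these markers was not tested. In shCDK19 cells limma called 0 members higher (0.196%) and 0 lower (0.0326%), with 7 at an unadjusted p under 0.05, and 7 were called without shControl replicate 2, where 23.5% of all genes were. Between the knockdown lines 2 were higher in shCDK8 cells, NFKBIA and TNFAIP2 (7.26%), and 4 lower, REL, TNFAIP8, BCL3 and NFKB2 (5.09%), and this count was 0 without any 1 of the 4 arrays. GADD45B (-1.45), LTBR (0.91) and IKBKB (0.81) were among the other pathway genes called in hypoxic shCDK8 cells.

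**Figure D4:**
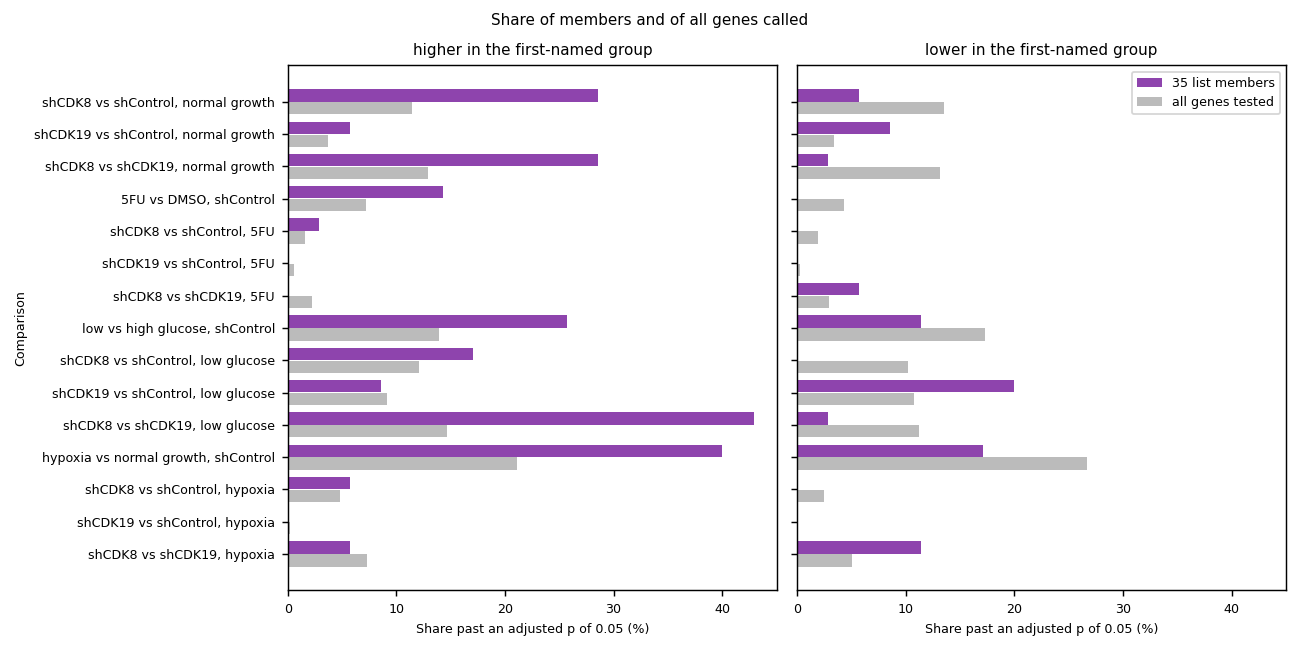
Share of the 35 members (purple) and of all 18404 genes (grey) with an adjusted p under 0.05, higher or lower in the first-named group of each of the 15 comparisons. The longest purple bar is that of members higher in shCDK8 than in shCDK19 cells in low glucose, at 42.9% against 14.7% of all genes.

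Whether a knockdown's effect differed between a stress and normal growth was tested as a difference of effects in 1 fit of all 35 arrays. Stress and experiment cannot be told apart in these tests. For shCDK8 3 members differed with 5FU (background 11.9% in either direction), 3 in low glucose (12.8%) and 7 in hypoxia (11.5%). TNFAIP2 was in all 3 sets, with a difference of effects of -0.86 ± 0.107 with 5FU (adjusted p = 3.74e-06), -0.60 ± 0.095 in low glucose (adjusted p = 7.49e-05) and 0.44 ± 0.107 in hypoxia (adjusted p = 0.00831). Its hypoxia call was lost without shControl or shCDK8 hypoxia replicate 1. The other members called with 5FU were NFKBIB, a call lost without shCDK8 5FU replicate 2 (adjusted p = 0.115), and CSF1, a call lost without any 1 of 7 arrays (up to 0.101): shControl normal growth replicate 1 or 3, shCDK8 normal growth replicate 1 and the 4 5FU arrays of these lines. The shCDK8 effect on NFKBIA was smaller in low glucose (-0.82 ± 0.12, adjusted p = 2.66e-05) and that on ICAM1 larger (0.90 ± 0.219, adjusted p = 0.00628). In hypoxia the shCDK8 effects on CXCL8 (-0.85 ± 0.19, adjusted p = 0.0043), TNFAIP3 (-0.66 ± 0.152, adjusted p = 0.00549), BCL3 (-0.58 ± 0.118, adjusted p = 0.00222) and NFKB2 (-0.45 ± 0.109, adjusted p = 0.00856) were lower than in normal growth, and CXCL1 and CXCL11 were called in the same direction. The last 2 calls were each lost without any 1 of 6 arrays (adjusted p up to 0.132 and 0.121), among them shControl hypoxia replicate 1 and both shCDK8 hypoxia arrays. The hypoxia count was 16 without shControl hypoxia replicate 2, where 37.7% of all genes were called, and the low glucose count was 5 without shControl normal growth replicate 3, shControl low glucose replicate 2 or shCDK8 low glucose replicate 2.

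For shCDK19, 4 members differed with 5FU, where 4% of all genes did. The shCDK19 effect on CXCL8 was negative in normal growth and positive with 5FU, a difference of 1.31 ± 0.19 (adjusted p = 9.66e-05). That on NFKBIA changed sign in the same way (0.94 ± 0.134, adjusted p = 7.23e-05). In 5FU itself neither effect was called. The difference was 0.62 ± 0.179 for CXCL2 (adjusted p = 0.0499) and -0.72 ± 0.16 for REL (adjusted p = 0.00732). The calls of NFKBIA, REL and CXCL8 held in every alternative, and that of CXCL2 was lost without any 1 of 9 arrays. In low glucose limma called 0 members (background 1.79%), with 4 at an unadjusted p under 0.05, and in hypoxia 0 (2.08%), with 3 at an unadjusted p under 0.05 and 3 called without shControl hypoxia replicate 2, where 24.8% of all genes were.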

How the data were processed

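Total RNA of HCT116 cells was measured on Affymetrix gene arrays. The deposited values, 1 per row and array, are on the log2 scale, judged from their range. Per the submitters' processing notes, the authors used Partek; their background correction and normalization were not given in the sources used here. A shared distribution can hide a change common to most genes, and the floor shortens changes of dim genes. Of 32321 rows, 19158 had 1 gene symbol in the platform annotation, and for 637 genes with several rows the row with the highest mean was kept. No pair of arrays was identical (0 pairs). Groups were fitted with limma 3.58.1 in R 4.3.3 (lmFit, eBayes) over all arrays of an experiment; hypoxia against normal growth and the differences of effects used 1 fit of all 35 arrays. P-values are two-sided and adjusted over 18404 genes, with a threshold of 0.05. The scripts were tested on simulated data. Alternatives were median centring, a minimum mean of 6, a replicate block, no variance moderation, 1 fit of all arrays, only the groups compared, and leaving out each array. Members called with an absolute change of at least 0.5 were described, most with values on single arrays. For NFKBIZ, TNIP1, CD83 and CCL2 only changes are given. NFKBIA, CXCL8, CXCL1, CCL20, TNFAIP3, IL6, TNF and the subunits were named whatever their values, and up to 3 genes were named per pathway list. The members and lists were chosen with earlier results of these data known. The number of arrays limits the precision.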

Additional observations from a re-analysis of the deposited data

Results flagged for a closer look

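In 17 cases the effect of a knockdown on a member differed between a stress and normal growth by the test of the difference itself (limma, 1 fit of all 35 arrays, adjusted over all genes). For shCDK8 and 5FU these were TNFAIP2 (-0.86), NFKBIB (0.43) and CSF1 (-0.31), as log2 differences of effects. For shCDK8 and low glucose they were ICAM1 (0.90), NFKBIA (-0.82) and TNFAIP2 (-0.60). For shCDK8 and hypoxia they were CXCL8 (-0.85), TNFAIP3 (-0.66), BCL3 (-0.58), CXCL11 (-0.55), CXCL1 (-0.50), NFKB2 (-0.45) and TNFAIP2 (0.44). For shCDK19 and 5FU they were CXCL8 (1.31), NFKBIA (0.94), REL (-0.72) and CXCL2 (0.62). The shares of all genes called for shCDK8 were 11.9% with 5FU, 12.8% in low glucose and 11.5% in hypoxia. For shCDK19 these shares were 4%, 1.79% and 2.08%. With 3 of 35 members called, the member share for shCDK8 was below that of all genes with 5FU and in low glucose. It was above that of all genes for shCDK8 in hypoxia (7 of 35) and for shCDK19 with 5FU (4 of 35). Every case sets arrays of a stress experiment against arrays of the normal growth experiment, so the stress and the experiment cannot be told apart. Groups held 2 or 3 arrays, too few for a test of single outlying arrays.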

How the results depend on the processing

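No call changed direction in any alternative tried, and of 126 calls 119 held with each array centred on its median, 116 of the 118 that could be tested with a minimum mean of 6 and 102 of 126 with the replicate block. Same-numbered arrays did not deviate together consistently (correlations from -0.62 to 0.367 in normal growth and from -0.496 to 0.41 in hypoxia), so they share only a number. With the replicate block the member count changed from 1 to 0 for shCDK8 in 5FU, from 2 to 1 between the lines in 5FU, from 2 to 0 for shCDK8 in hypoxia and from 6 to 2 between the lines in hypoxia. A block with the numbers crossed, chosen after seeing the data, gave 8 calls for 5FU against DMSO in place of 5. For 5FU against DMSO centring gave 12, the minimum mean 9 and 1 fit of all arrays 11, and for shCDK8 in 5FU these gave 3, 4 and 5. For shCDK19 in 5FU the main count of 0 became 1 with the minimum mean, 1 without variance moderation and 4 in 1 fit of all arrays. Without moderation the counts were 0 for shCDK8 in 5FU, 1 between the lines in 5FU, 0 for shCDK8 in hypoxia and 3 between the lines in hypoxia. The fit of all arrays gave 13, 6 and 12 for shCDK8, shCDK19 and the lines compared in hypoxia, and the fit of only the groups compared gave 10 for hypoxia against normal growth. Leaving out 1 array gave 0 to 7 for 5FU against DMSO, 0 to 2 for shCDK8 in 5FU, 0 to 1 between the lines in 5FU, 2 to 4 for shCDK19 in normal growth, 13 to 23 for hypoxia against normal growth, 0 to 14 for shCDK8 in hypoxia, 0 to 7 for shCDK19 in hypoxia and 0 to 0 between the lines in hypoxia. For the differences of effects the ranges were 3 to 5 for shCDK8 in low glucose, 5 to 16 for shCDK8 in hypoxia and 0 to 3 for shCDK19 in hypoxia. Fewer arrays enter those fits; the cause of the other shifts was not tested. In the 5FU comparisons and the hypoxic knockdown comparisons 0 calls held in every alternative.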
